A study of Mus musculus with 11 samples.

Results

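The genes described here encode the nuclear-encoded subunits of the 5 oxidative phosphorylation complexes of the mitochondrion. They were chosen by gene symbol alone: names of the Ndufa, Ndufb, Ndufc, Ndufs or Ndufv series, Sdha to Sdhd, names that start with Uqcr or Atp5, and the Cox4 to Cox8 series, leaving out 2 pseudogenes. This gave 78 of the 22180 genes measured, of which 33 belong by name to complex I, 4 to complex II, 7 to complex III, 17 to complex IV and 17 to complex V. The RNA came from 720, a mouse line of T-ALL, an acute leukaemia of immature T cells, that was established from a Tcf12+/- animal whose Tal1 transgene is driven by the Lck promoter. Every culture therefore carried the same Tcf12 and Tal1 alleles, and all values come from that single line. Cells were exposed for 8 h to a Runt domain inhibitor, a compound aimed at the DNA-binding domain of the RUNX transcription factors, and whole-transcript microarrays were hybridised with the RNA of the live cells recovered. There were 3 arrays for AI-7-54 at 100 µM (replicates 1, 3 and 4), 4 arrays for AI-8-45 at 100 µM and 4 arrays for AI-9-54 at 50 µM. Vehicle-treated cells were not analysed here, so "higher" and "lower" always set a compound against another compound. The dose of AI-9-54 was not that of the other compounds, so compound and dose cannot be told apart in its comparisons. Whether replicates were separate cultures is not stated, so the spread behind the p-values is that among these arrays and could be technical.

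Oxidative phosphorylation couples electron flow to ATP synthesis in the inner mitochondrial membrane. Complex I (NADH dehydrogenase) and complex II (succinate dehydrogenase) pass electrons to ubiquinone, complex III passes them to cytochrome c, complex IV (cytochrome c oxidase) passes them to oxygen, and complex V (ATP synthase) uses the resulting proton gradient. Most subunits are encoded in the nucleus and must be matched with the few encoded by mitochondrial DNA, and their promoters are known for sites of the factors NRF1, GABP and YY1. Leukaemic T cells use this pathway beside glycolysis.

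The values lay on what their range shows to be a log2 scale, and the arrays were alike in their overall signal, with medians from 6.61 to 6.68. Of 18 T-lineage marker genes listed, 12 were measured, with a median level of 11.3. The median level was 6.29 for 9 B-lineage markers, 6.09 for 10 myeloid markers, 6.46 for 3 erythroid markers and 6.87 for 10 stromal and endothelial markers, close to the array medians. Among the markers of other lineages, Ighm, the immunoglobulin heavy chain of B cells, was the called gene, at -0.96 after AI-9-54 relative to AI-7-54. Of the 12 T-lineage markers, 5 (Bcl11b, Cd2, Cd5, Ptcra and Thy1) were called lower in that comparison, 41.7% against 7.29% of all genes. Only 1, Cd7, was called higher, against 6.87% of all genes. The differences ran from -0.81 to 0.40. The median level of these markers lay at the 96.3 percentile of all genes. The mean deviation of the T-lineage markers from their own means was 0.04 to 0.22 on the AI-7-54 arrays, -0.048 to 0.12 on the AI-8-45 arrays and -0.16 to -0.052 on the AI-9-54 arrays, and their part in the results below was not tested. In RNA from a whole culture, fewer cells with a transcript and less of it per cell cannot be told apart.

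Averaged over the 78 genes, the subunit transcripts were highest after AI-7-54. Each gene's value was taken relative to its own mean over the 11 arrays. The average deviation of the subunit genes was 0.09, 0.12 and 0.10 on the AI-7-54 arrays (replicates 1, 3 and 4). It was 0.0096, -0.047, 0.02 and 0.05 on the AI-8-45 arrays (replicates 1 to 4). It was -0.15, -0.12, -0.034 and -0.035 on the AI-9-54 arrays. Every AI-7-54 array lay above every other array, whereas AI-8-45 replicate 2 lay below AI-9-54 replicates 3 and 4, so those groups overlapped. Within AI-9-54, replicates 1 and 2 were lower than replicates 3 and 4. In each of the 5 complexes the AI-7-54 arrays lay above the AI-9-54 arrays, with the smallest distance between group means in complex IV (0.05 ± 0.02 SD, n = 3, after AI-7-54 and -0.041 ± 0.04 SD, n = 4, after AI-9-54).

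**Figure D1:**
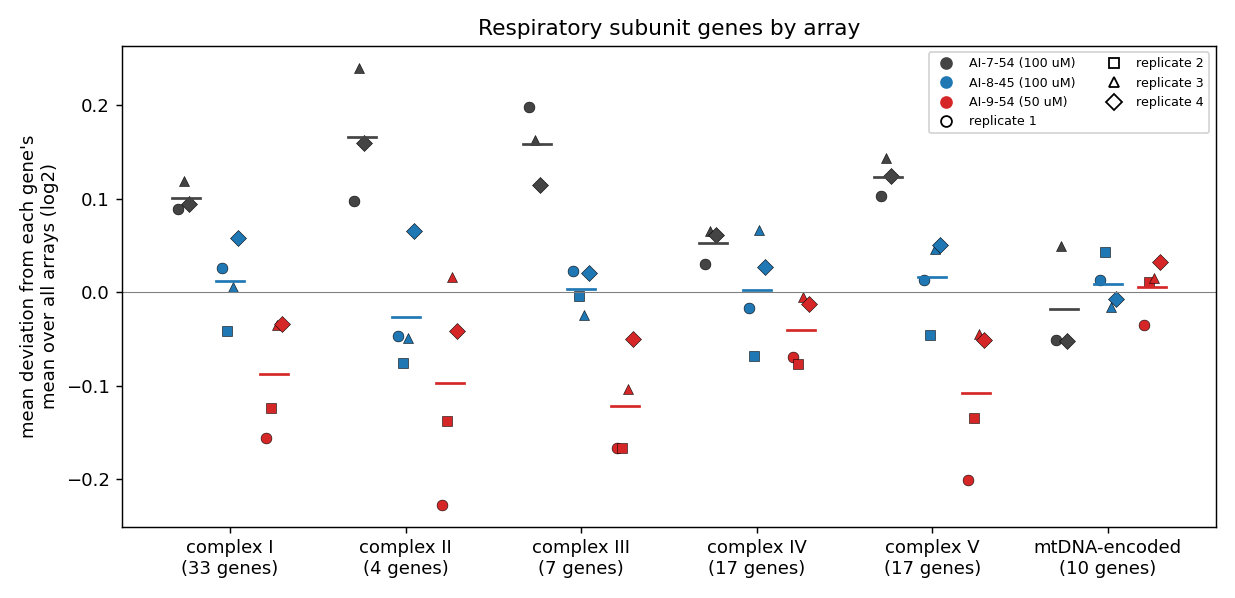
Mean deviation of the nuclear-encoded subunit genes of each complex, and of the mitochondrially encoded subunit genes, from each gene's mean over all arrays (vertical axis, log2), by array. Colours mark the compound, symbols the replicate number and bars the group mean; over the 78 nuclear genes the AI-7-54 arrays lie at 0.09 to 0.12, the AI-9-54 arrays at -0.15 to -0.034.

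The largest set of differences was between AI-9-54 and AI-7-54. In a limma model over all genes, with p-values adjusted by Benjamini-Hochberg over the 22180 genes and a call at an adjusted p under 0.05, 32 of the 78 subunit genes (41.0%) were lower after AI-9-54 and 0 were higher, and 49 reached an unadjusted p under 0.05 against 24.4% of all genes. Over all genes, 14.2% were called in that comparison, 7.29% lower and 6.87% higher. The subunit genes are bright as a group, with a median level at the 86.3 percentile of all genes, and bright genes were called more often. In a separate fit to the 11090 genes above the median level, 39 of the 73 subunit genes left (53.4%) were called, all lower. Of all those genes 31.5% were called, 1826 lower and 1672 higher. The median difference of the subunit genes was -0.18, against -0.0014 for all genes. A difference below 0 was found for 68 of the 78, against 50.7% of all genes. The arrays of the groups did not overlap for 53 of the 78, all of them lower after AI-9-54, against 12.0% of all genes for that direction. All 32 called genes were among these 53. The called genes numbered 13 of 33 for complex I, 1 of 4 for complex II, 3 of 7 for complex III, 6 of 17 for complex IV and 9 of 17 for complex V.

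**Figure D2:**
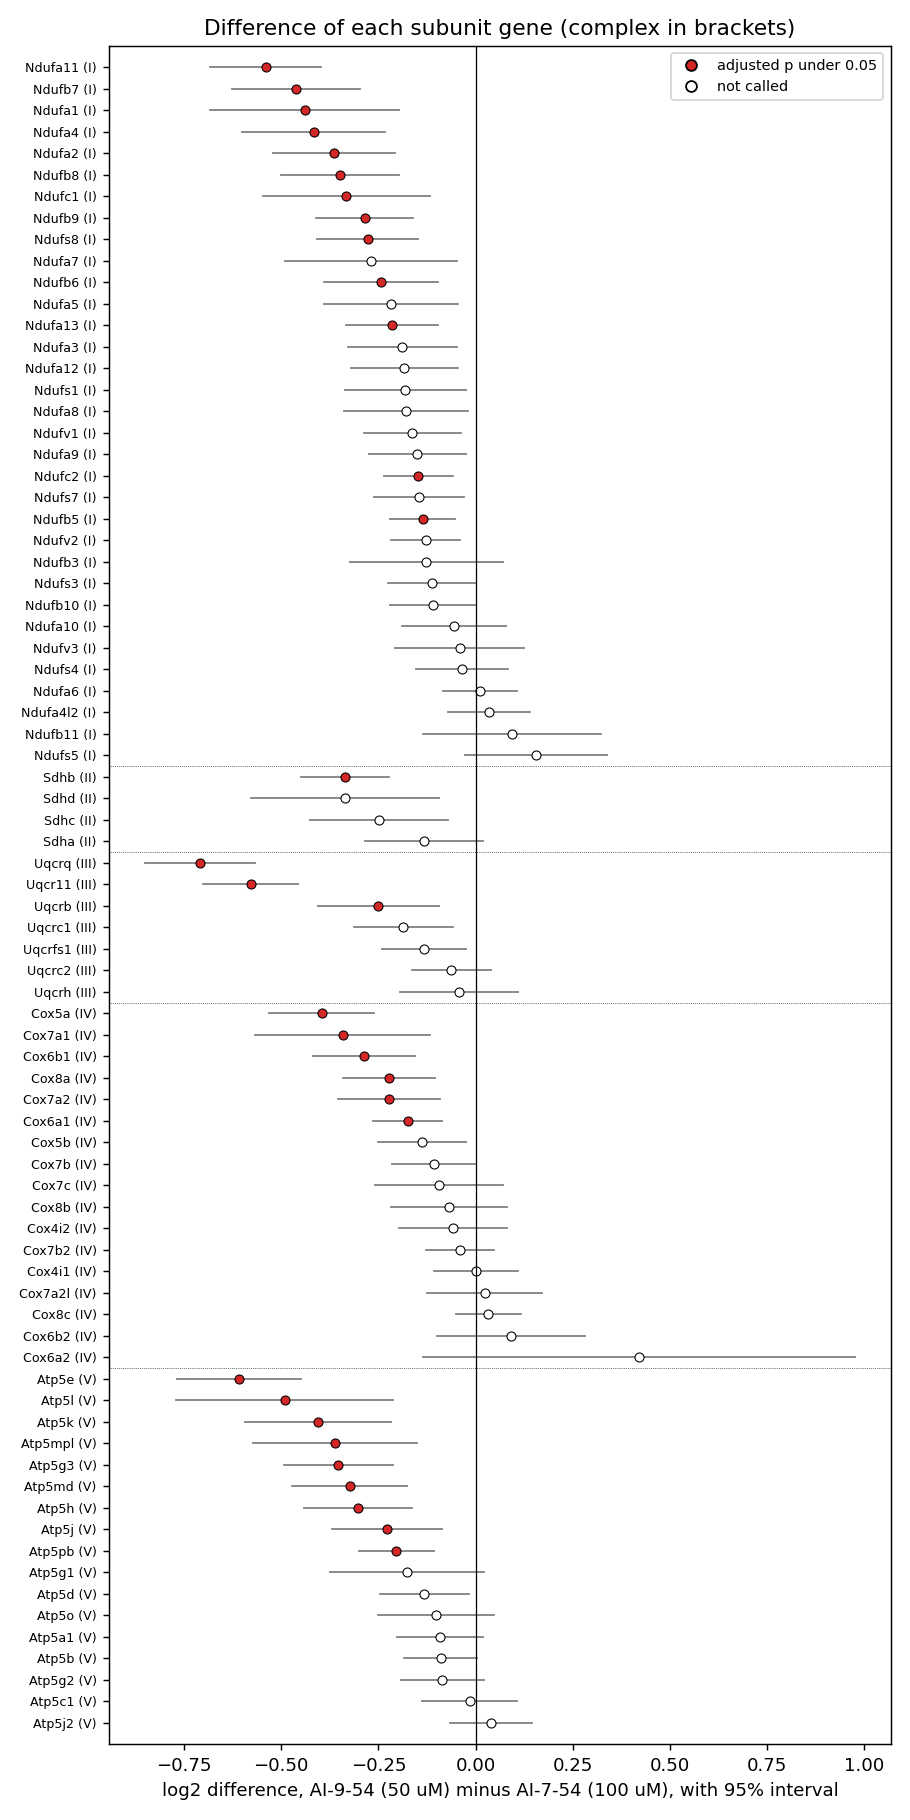
Difference of each of the 78 subunit genes between AI-9-54 (50 µM) and AI-7-54 (100 µM), with its 95% interval from limma (horizontal axis, log2), in order within each complex. Filled points mark the 32 genes called at an adjusted p under 0.05, all of them below 0; the values run from -0.71 for Uqcrq to 0.42 for Cox6a2, which was not called.

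The count of 32 depended on single arrays of both groups. It was 20 without AI-7-54 replicate 3 and also 20 without AI-7-54 replicate 4. The subunit share called was then 25.6% in each, and calls over all genes fell too, from 14.2% to 9.48% and 9.59%. The count was 22 without AI-9-54 replicate 2, 23 without AI-9-54 replicate 1 and 24 without AI-7-54 replicate 1. Of all genes 11.7%, 12.3% and 12% were called there. Leaving out any of the other arrays gave from 30 to 33, where 12.4% to 14.8% of all genes were called. A total of 18 genes kept the call whichever array was left out. The other 14 (Ndufa1, Ndufa13, Ndufb5, Ndufb6, Ndufc1, Ndufc2, Uqcrb, Cox6a1, Cox7a1, Cox7a2, Cox8a, Atp5j, Atp5l and Atp5mpl) lost it in at least 1 such fit, with limma adjusted p-values of up to 0.195. The arrays that cost the most calls were AI-7-54 replicates 3 and 4 (12 each), AI-9-54 replicate 2 (10), and AI-7-54 replicate 1 and AI-9-54 replicate 1 (9 each). Within replicates 3 and 4 alone 12 genes were called lower, where 9.87% of all genes were called in either direction. Replicates 1 and 2 alone leave a single AI-7-54 array. The median difference was -0.18 in replicates 1 and 2 and -0.14 in replicates 3 and 4. All 32 genes had a difference below 0 in both sets. They were called on these same arrays, so the shared sign is no separate evidence. With the replicate number as a block, 28 subunit genes were lower and 1, Cox6a2, was higher, where 14.9% of all genes were called. Ndufb5, Ndufc2, Cox7a1 and Cox7a2 lost the call there, with limma adjusted p-values of 0.0602, 0.0715, 0.0569 and 0.06.

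The promoters of the subunit genes were examined because many of these genes differed together. RefSeq promoter windows (build GRCm38.p6), running from 250 bases before to 50 bases after an annotated start, matched 64 of the 78 genes. The motif CCGGAAG of GABP, an ETS-family factor known for binding respiratory gene promoters, was searched on both strands. It was in a window of 17 of the 64 genes (26.6%), against 9.93% of all genes with a window, and in 24.6% of the subunit windows, against 8.86% of all windows. Of the 17 genes with the motif, 14 were called lower with AI-9-54 than with AI-7-54, with a median difference of -0.30. Of the 47 without it, 13 were called lower, with a median of -0.14. For tested genes outside the subunits, 14.1% of those with the motif were lower and 10.4% higher in the same comparison, against 6.56% lower and 6.58% higher of those without it. The motif was chosen with the calls known, so these shares are a description with no test, and a match is not a shown binding site. The GABP matches of the 6 motif-bearing genes with the largest called differences are given here on the strand of the motif, 5′ to 3′, with the motif in capitals and 10 bases on either side.
Atp5e: cgagcggctaCCGGAAGctgtggccgt
Uqcr11: tctctcctccCCGGAAGtagatgtcaa
Atp5l: aatgtcacccCCGGAAGgacccgcggc
Ndufb7: cctagatgacCCGGAAGacactgaagg
Atp5k: gaccttcgcgCCGGAAGctcaactgag
Sdhb: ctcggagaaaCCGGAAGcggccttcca
The motif was also in the windows of 3 genes that were not called, and their matches are shown for comparison.
Ndufs3: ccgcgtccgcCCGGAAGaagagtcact
Sdhd: gaagcgtgaaCCGGAAGgcaggagacg
Uqcrh: ggcgacctggCCGGAAGtgcggcatac
Counted from the start site as 0, the match began at -66 in Uqcr11, -102 in Atp5e, -20 in Ndufb7 and 6 in Sdhb (a negative number lies before the start). Atp5l, Cox8a and Ndufs3 each had a further match in the window. The other genes with the motif that were called lower were Atp5h, Atp5j, Atp5md, Cox6a1, Cox6b1, Cox8a, Ndufb6 and Ndufs8.

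The other motifs were searched in the same windows. The NRF1 motif was in 15 of the 64 genes (23.4%, against 5.19% of all genes), and 5 of these 15 were called lower, against 22 of the 49 without it. Outside the subunits, 14.1% of tested genes with the NRF1 motif were lower, against 6.99% without it, the opposite order to that in the subunits. Genes with it were also called higher more often there, 12.7% against 6.63% without it. The YY1 motif AAGATGGCG was in 6 genes (9.38%, against 1.64%), of which 2 were called lower, against 25 of the 58 without it. Outside the subunits the shares were 17.4% with and 7.29% without, again in the opposite order. The shares called higher there were 9.12% with and 7.02% without. The RUNX motif TGTGGT was in 7 genes (10.9%, against 18.9% of all genes) and its variant TGCGGT in 6 genes (9.38%, against 7.34%), with 2 genes called lower for each. Without TGTGGT 25 of 57 genes were called lower, and without TGCGGT 25 of 58. Outside the subunits, 5.91% of genes with TGTGGT and 7.82% without it were lower, and 11.1% of genes with TGCGGT and 7.17% without it. The shares called higher were 6.84% and 7.11% for TGTGGT, and 9.61% and 6.83% for TGCGGT. Both strands were searched for every motif, and overlapping matches were allowed. With the shorter GABP letters CCGGAA, 16 of 26 genes with a match were called lower and 11 of 38 without one, and outside the subunits 12.9% and 6.11% were. Called higher outside the subunits were 10.4% with a match and 6.19% without one.

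**Figure D3:**
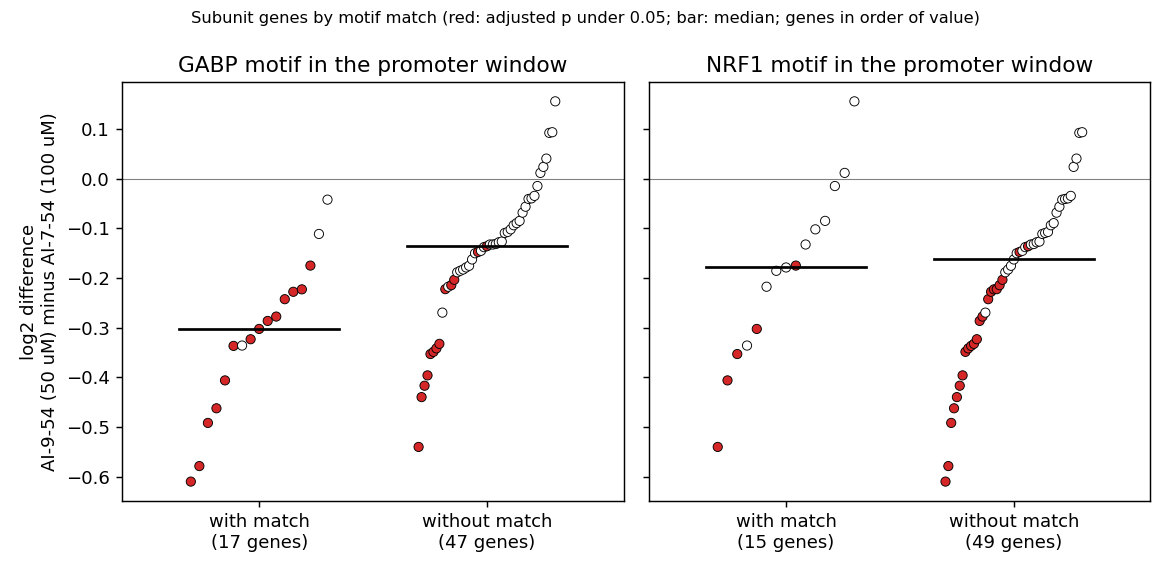
Difference between AI-9-54 (50 µM) and AI-7-54 (100 µM) for the 64 subunit genes with a RefSeq promoter window (vertical axis, log2), split by a match to the GABP motif (left) or the NRF1 motif (right). Each point is a gene, filled where called, and bars are medians; the GABP split has medians of -0.30 with and -0.14 without a match, the NRF1 split -0.18 and -0.16.

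Complex III held the widest difference. Uqcrq, a small subunit that packs against cytochrome b, had log2 values of 8.90, 8.77 and 8.66 after AI-7-54, 8.36, 8.25, 8.27 and 8.22 after AI-8-45, and 8.01, 7.99, 8.09 and 8.19 after AI-9-54. The 3 groups formed 3 separate bands with no overlap. Uqcrq was 1.635-fold lower with AI-9-54 than with AI-7-54 (log2 difference -0.71, 95% interval -0.85 to -0.57, limma adjusted p = 2.08e-05). Uqcr11, the smallest subunit of the complex, had values of 8.89, 8.82 and 8.80 after AI-7-54. It had 8.56, 8.56, 8.62 and 8.56 after AI-8-45, and 8.26, 8.14, 8.23 and 8.40 after AI-9-54. These bands did not overlap either, and the difference between AI-9-54 and AI-7-54 was -0.58 (interval -0.70 to -0.46, limma adjusted p = 3.17e-05). The 250 bases before the Uqcr11 start (chr10:80406822-80407071, minus strand, GRCm38.p6) are shown because the gene was called in all 3 comparisons, with the RUNX letters (as ACCACA on this strand) and the GABP match in capitals.
Uqcr11: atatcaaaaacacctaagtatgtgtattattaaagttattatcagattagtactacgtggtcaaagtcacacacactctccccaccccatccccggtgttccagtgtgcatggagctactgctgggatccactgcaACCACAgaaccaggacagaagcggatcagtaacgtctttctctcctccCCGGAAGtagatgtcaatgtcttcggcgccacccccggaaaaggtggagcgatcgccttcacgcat
Uqcrb, which also contacts cytochrome b, was lower by a smaller amount (log2 difference -0.25, SE 0.07, limma adjusted p = 0.035). The large subunits did not pass the test. Uqcrc1, a core protein, differed by -0.19 (interval -0.31 to -0.058), Uqcrc2 by -0.062, and Uqcrfs1, the Rieske iron-sulfur protein that hands electrons on, by -0.13 (interval -0.24 to -0.024). Uqcrh, the hinge protein, differed by -0.042.

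Complex V had 9 called genes, from the central stalk to the small membrane subunits. Atp5e, the epsilon subunit of the central stalk, had values of 9.63, 9.34 and 9.44 after AI-7-54, 9.34, 9.14, 9.31 and 9.18 after AI-8-45, and 8.77, 8.92, 8.84 and 8.91 after AI-9-54. All AI-9-54 arrays lay below all others, while AI-7-54 and AI-8-45 overlapped near 9.34. The gene was 1.53-fold lower with AI-9-54 than with AI-7-54 (log2 difference -0.61, interval -0.77 to -0.45, limma adjusted p = 0.000162). The 250 bases before its start (chr2:174464102-174464351, minus strand, GRCm38.p6) hold the GABP match as CTTCCGG on this strand, and are shown because Atp5e had the widest called difference of the motif-bearing genes.
Atp5e: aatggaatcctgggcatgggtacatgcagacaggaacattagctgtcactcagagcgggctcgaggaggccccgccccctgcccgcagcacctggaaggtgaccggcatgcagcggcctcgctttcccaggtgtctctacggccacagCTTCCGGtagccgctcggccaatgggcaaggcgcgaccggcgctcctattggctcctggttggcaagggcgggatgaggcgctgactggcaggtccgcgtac
Of the other 4 head and stalk subunits, none was called. Atp5b, the catalytic beta subunit, had values of 13.11, 13.14 and 13.11 after AI-7-54 and 12.98, 13.00, 13.08 and 13.07 after AI-9-54, a difference of -0.09 (interval -0.18 to 0.004). The groups did not overlap but lay close together. Atp5a1, the alpha subunit, differed by -0.09 (interval -0.20 to 0.02), Atp5d by -0.13 and Atp5c1 by -0.015.

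The peripheral stalk and the small membrane subunits of ATP synthase made up most of the rest. Of the 4 stalk genes, Atp5h (-0.30), Atp5j (-0.23) and Atp5pb (-0.20) were called lower, and Atp5o was at -0.10. Of the 5 small membrane subunits, which take part in dimer formation and in holding the enzyme in the membrane, 4 were called lower: Atp5l at -0.49, Atp5k at -0.41, Atp5mpl at -0.36 and Atp5md at -0.32. Atp5l, subunit g, had values of 9.55, 9.70 and 9.74 after AI-7-54, 9.35, 9.25, 9.76 and 9.64 after AI-8-45, and 8.91, 9.12, 9.26 and 9.39 after AI-9-54. The AI-8-45 arrays straddled the AI-7-54 range, and every AI-9-54 array lay below the AI-7-54 arrays (limma adjusted p = 0.0223). Of the 3 genes that encode the same mature c-ring subunit, Atp5g3 was called lower at -0.35 (limma adjusted p = 0.0029), and Atp5g1 and Atp5g2 were at -0.18 and -0.085. Atp5j2, subunit f, was at 0.04.

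In complex I, both the catalytic core and the accessory subunits, which surround it and are needed for assembly and stability, lay mostly below 0. The 27 genes counted as accessory subunits were taken by name and include Ndufa4 and Ndufa4l2. Of these 27 genes 12 were called lower, with a median of -0.18, and of 6 measured core subunit genes 1 was, with a median of -0.15. An unadjusted p under 0.05 was reached by 18 of the 27 and by 5 of the 6, and groups did not overlap, with AI-9-54 lower, for 19 of the 27 and 5 of the 6. The difference between accessory and core genes was not tested. Ndufa11, an accessory subunit of the membrane arm, had values of 10.72, 10.55 and 10.52 after AI-7-54, 10.38, 10.18, 10.19 and 10.29 after AI-8-45, and 10.05, 9.95, 10.13 and 10.09 after AI-9-54. The 3 groups did not overlap, and AI-9-54 differed from AI-7-54 by -0.54 (interval -0.68 to -0.40, limma adjusted p = 0.000179). Ndufb7, another membrane-arm subunit, had values of 9.54, 9.54 and 9.64 after AI-7-54, 9.27, 9.20, 9.33 and 9.41 after AI-8-45, and 9.05, 8.93, 9.22 and 9.24 after AI-9-54. Its AI-7-54 arrays stood above all others, and the difference between AI-9-54 and AI-7-54 was -0.46 (limma adjusted p = 0.00148). Ndufa1, a small subunit needed early in assembly, had values of 9.40, 9.41 and 9.31 after AI-7-54, 9.08, 8.95, 9.22 and 9.27 after AI-8-45, and 8.71, 8.76, 9.10 and 9.17 after AI-9-54. It differed by -0.44 between AI-9-54 and AI-7-54 (limma adjusted p = 0.0195). The difference was wider in replicates 1 and 2 (-0.67) than in replicates 3 and 4 (-0.23), and it lost the call in 3 leave-out fits. Ndufa4, named as complex I but also known as a component of complex IV, had values of 10.74, 10.89 and 10.78 after AI-7-54, 10.54, 10.57, 10.56 and 10.65 after AI-8-45, and 10.17, 10.30, 10.55 and 10.53 after AI-9-54. The difference was -0.42 (limma adjusted p = 0.00532), with every AI-7-54 array above the rest.

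The remaining called genes of complex I had smaller differences. They were the accessory subunits Ndufa2 (-0.36), Ndufb8 (-0.35), Ndufc1 (-0.33), Ndufb9 (-0.29), Ndufb6 (-0.24), Ndufa13 (-0.21), Ndufc2 (-0.15) and Ndufb5 (-0.14), and the core subunit Ndufs8 (-0.28), which carries iron-sulfur clusters. The other core subunits measured had values between -0.18 and -0.11 and were not called. Among them, Ndufs1, which carries clusters at the entry of the chain, differed by -0.18 (interval -0.34 to -0.024), Ndufv1, which binds NADH, by -0.16 (interval -0.29 to -0.039) and Ndufs7 by -0.15 (interval -0.26 to -0.029). At the other end, Ndufs5 was at 0.16 and Ndufb11 at 0.09, neither called.

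In complex II, the called gene was Sdhb, the iron-sulfur subunit of succinate dehydrogenase. It had values of 9.78, 9.81 and 9.72 after AI-7-54, 9.59, 9.47, 9.53 and 9.57 after AI-8-45, and 9.35, 9.54, 9.43 and 9.42 after AI-9-54. The AI-7-54 arrays stood above all others, and the other groups overlapped. AI-9-54 differed from AI-7-54 by -0.34 (interval -0.45 to -0.22, limma adjusted p = 0.000953). Sdhd, which anchors the enzyme in the membrane, differed by as much (-0.34) with a wider spread and was not called (interval -0.58 to -0.09, limma adjusted p = 0.0684). The other anchor Sdhc was at -0.25 (interval -0.43 to -0.07) and the flavoprotein Sdha at -0.13 (interval -0.29 to 0.02).

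Complex IV has widely expressed subunits and tissue-restricted isoforms. Of 9 common subunit genes 5 were called lower: Cox5a (-0.40), Cox6b1 (-0.29), Cox8a (-0.22), Cox7a2 (-0.22) and Cox6a1 (-0.18). Cox5a, a subunit on the matrix side, had values of 10.25, 10.46 and 10.45 after AI-7-54, 10.11, 10.04, 10.20 and 10.07 after AI-8-45, and 9.91, 9.97, 10.05 and 10.04 after AI-9-54. The AI-7-54 arrays lay above the rest, AI-9-54 overlapped with AI-8-45, and the limma adjusted p for AI-9-54 against AI-7-54 was 0.00104. Cox4i1, the ubiquitous form of the largest nuclear-encoded subunit, showed no such pattern. Its values were 11.02, 10.99 and 10.94 after AI-7-54, 11.10, 10.99, 11.02 and 10.94 after AI-8-45, and 10.96, 11.07, 10.93 and 10.98 after AI-9-54. The groups overlapped throughout, with a difference of 0.0007 (interval -0.11 to 0.11) for AI-9-54 against AI-7-54. Cox5b, the zinc-binding subunit, was at -0.14 (interval -0.25 to -0.024) and was not called.

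**Figure D4:**
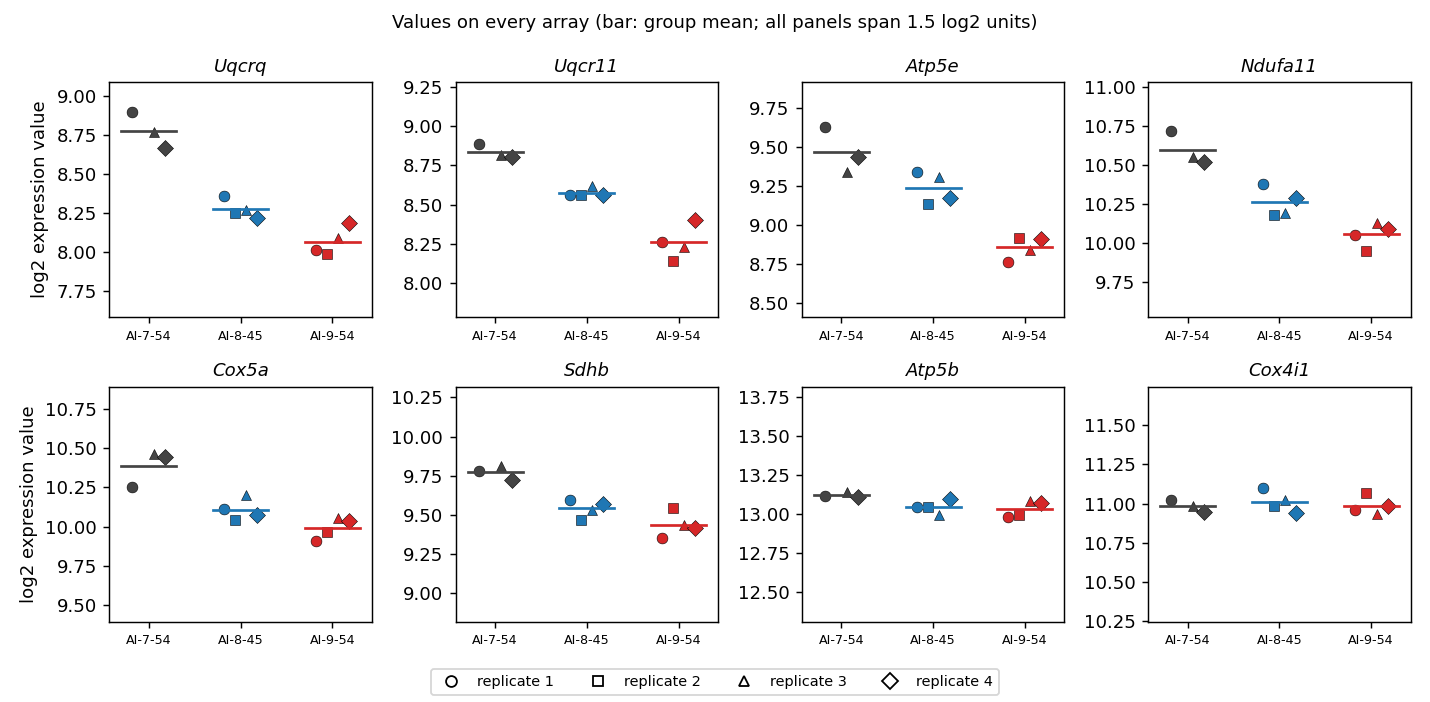
Log2 expression value on every array (vertical axis; each panel spans 1.5 log2 units) for 6 subunit genes called in more than 1 comparison and for Atp5b and Cox4i1, which were not called. Symbols mark the replicate number and bars the group mean; Uqcrq goes from 8.90 to 7.99, and Cox4i1 keeps between 10.93 and 11.10.

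Of the 7 tissue-restricted complex IV isoforms, 1 was called. Cox7a1, the muscle form of its subunit, differed by -0.34 (limma adjusted p = 0.0457) and lost the call in 8 of 11 leave-out fits. Cox6a2, the muscle form of another subunit, had the widest positive difference of all members. Its values were 8.20, 9.05 and 9.19 after AI-7-54, 8.20, 8.16, 9.01 and 9.01 after AI-8-45, and 9.14, 9.10, 9.42 and 9.28 after AI-9-54. Replicate 1 of AI-7-54 and replicates 1 and 2 of AI-8-45 were low and the replicates numbered 3 and 4 were high, while all AI-9-54 arrays were high. The difference between AI-9-54 and AI-7-54 was 0.42 (interval -0.14 to 0.98, limma adjusted p = 0.375). With the replicate block it was called, at a limma adjusted p of 0.0334. Cox4i2 (-0.058), Cox6b2 (0.09), Cox7b2 (-0.04), Cox8b (-0.069) and Cox8c (0.03) were not called, and neither was Ndufa4l2 (0.03), an isoform known from hypoxic cells. Cox7b2, Cox8b, Cox8c, Ndufa4l2 and Ndufs5 lay below the array median on all 11 arrays, so their signal was dim, which does not show that they are absent. Cox7a2l, a factor of respiratory supercomplexes that the naming rule includes, was at 0.02.

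At the same dose of 100 µM, AI-8-45 and AI-7-54 differed in fewer subunit genes. Here 6 of the 78 were lower after AI-8-45 and 0 were higher, where 5.66% of all genes were called (3.53% lower and 2.13% higher), and 23 subunit genes reached an unadjusted p under 0.05 against 16.7% of all genes. The median difference of the subunit genes was -0.09 against 0.0014 for all genes, 64 of the 78 lay below 0 against 49.3% of all genes, and 23 had non-overlapping groups with AI-8-45 lower against 9.07% of all genes. None had them with AI-8-45 higher, against 6.79%. The share called, 7.69% and all lower, lay beside 3.53% of all genes called lower and 5.66% called in either direction. In a separate fit to genes above the median level, 8 of 73 subunit genes (11%) were called, all lower. Of all 11090 such genes 15.2% were called, 1038 lower and 650 higher. Uqcrq had the widest called difference (-0.50, interval -0.65 to -0.36, limma adjusted p = 0.000777). It was followed by Ndufa11 (-0.34, limma adjusted p = 0.0107), Cox5a (-0.28, limma adjusted p = 0.0195) and Uqcr11 (-0.26, limma adjusted p = 0.0173). Sdhb (-0.23, limma adjusted p = 0.0208) and the peripheral stalk gene Atp5pb (-0.18, limma adjusted p = 0.0303) completed the 6. Atp5pb, subunit b, had values of 11.73, 11.80 and 11.71 after AI-7-54 and 11.57, 11.58, 11.51 and 11.59 after AI-8-45, with no overlap. Uqcrq and Ndufa11 kept the call whichever array was left out. The count was 3 without AI-7-54 replicate 1, 2 without AI-7-54 replicate 3, 3 without AI-7-54 replicate 4 and 3 without AI-8-45 replicate 2. Without that last array Cox6b2 was called higher, at 0.27. The subunit shares called in these fits were 3.85%, 2.56%, 3.85% and 5.13%, against 4.72%, 2.43%, 2.8% and 4.22% of all genes. Atp5pb also lost the call without AI-8-45 replicate 1 or 3 and with the replicate number as a block. Among subunits that were not called, Atp5b differed by -0.076 (interval -0.17 to 0.02), Cox4i1 by 0.03 (interval -0.08 to 0.14) and Uqcrfs1 by -0.064 (interval -0.17 to 0.05).

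Between AI-9-54 and AI-8-45, 2 subunit genes were called, both lower after AI-9-54, where 1.31% of all genes were called (0.6% lower and 0.708% higher). They were Uqcr11 (-0.32, interval -0.43 to -0.20, limma adjusted p = 0.0132) and Atp5e (-0.38, interval -0.53 to -0.23, limma adjusted p = 0.0201). For both, all 4 AI-9-54 arrays lay below all 4 AI-8-45 arrays. Uqcr11 kept the call in all 11 leave-out fits. Atp5e lost it without AI-8-45 replicate 1 or 3 and without AI-9-54 replicate 1 or 3, which leaves a count of 1 in each. Of all genes 0.577% to 0.902% were called in those fits. In a separate fit to genes above the median level, 3 of 73 subunit genes (4.11%) were called, all lower. Of all 11090 such genes 3.93% were called, 207 lower and 229 higher, a share close to that of the subunits. The median difference of the subunit genes was -0.09 against 0.0001 for all genes, 71 of the 78 lay below 0 against 49.9% of all genes, and 27 reached an unadjusted p under 0.05 against 11.4%. Groups did not overlap for 13 genes with AI-9-54 lower, against 2.84% of all genes, and for 1, Cox6a2, with AI-9-54 higher (log2 difference 0.64, limma adjusted p = 0.292), against 3.83%. With the replicate number as a block Cox6a2 was called higher here (limma adjusted p = 0.0299), as it was with the replicate set as a factor. Cox6b1, which lies on the intermembrane side of complex IV, came next to the threshold at -0.24 (limma adjusted p = 0.0667). This comparison and the preceding ones share arrays, so their values are not independent of each other.

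For 9 members more than 1 probe set was available, and the brightest was used. The probe sets of a gene had the same sign of difference in 6 of 9 genes between AI-8-45 and AI-7-54 and in 8 of 9 in each comparison of AI-9-54. The second, dimmer probe set of Ndufa11 was at 0.17 between AI-8-45 and AI-7-54 and at 0.04 between AI-9-54 and AI-7-54, and that of Atp5e at 0.04 and -0.0045, so neither showed the difference seen with the brighter one. In other genes the dimmer probe set differed more than the brighter one between AI-9-54 and AI-7-54. In a limma fit over all single-symbol probe sets, that of Cox5b was at -0.31 (limma adjusted p = 0.0271) and that of Ndufa12 at -0.23 (limma adjusted p = 0.0178), both called where the brighter one was not. The dimmer one of Atp5d was at -1.12 with a wide spread (SE 0.40, limma adjusted p = 0.0944). With the mean of the probe sets in place of the brightest, Ndufa11 was not called between AI-8-45 and AI-7-54, Atp5e was not called between AI-9-54 and AI-8-45, and Atp5h was not called between AI-9-54 and AI-7-54.

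Many of the factors that assemble the complexes were also lower with AI-9-54. Between AI-9-54 and AI-7-54, 5 of 19 complex I assembly factors were lower, 0 of 4 for complex II, 1 of 6 for complex III, 5 of 22 for complex IV and 0 of 5 for complex V, while Ttc19 (0.25) of complex III and Surf1 (0.22) of complex IV were higher. Over all genes 7.29% were lower and 6.87% higher. The assembly factor lists are bright, with median levels from the 69.3 to the 85.6 percentile, and bright genes were called more often. Of the 11090 genes above the median level, 31.5% were called between AI-9-54 and AI-7-54 in a separate fit, 1826 of them lower. Between AI-8-45 and AI-7-54 15.2% were, 1038 of them lower. The lists were not counted in those fits. For complex I factors the share called lower was 26.3%, with 16 of 19 below 0, 11 of 19 in non-overlapping groups (12.0% of all genes) and a median of -0.13. Between AI-8-45 and AI-7-54 it was 15.8%, against 3.53% of all genes, with 17 of 19 below 0 and a median of -0.17, so a shift below 0 was not seen in the subunits alone. Uqcc2, which helps to make cytochrome b for complex III, had values of 10.46, 10.35 and 10.40 after AI-7-54, 9.98, 9.80, 9.68 and 9.94 after AI-8-45, and 9.55, 9.39, 9.60 and 9.59 after AI-9-54. The 3 groups did not overlap, and the gene was called in all 3 comparisons: -0.87 between AI-9-54 and AI-7-54 (limma adjusted p = 1.16e-05), -0.55 between AI-8-45 and AI-7-54 (limma adjusted p = 0.00106) and -0.32 between AI-9-54 and AI-8-45 (limma adjusted p = 0.0451). The complex I factors were led by Ndufaf4 (-0.63, limma adjusted p = 0.000121) and Tmem126a (-0.45, limma adjusted p = 0.00335), followed by Aifm1 (-0.26), Ecsit (-0.25) and Ndufaf6 (-0.20). Those of complex IV were Cox10, which makes haem for the enzyme (-0.36), Lrpprc, which stabilises mitochondrial mRNA (-0.36), Cmc2 (-0.31), Coa3 (-0.24) and Taco1 (-0.17). At matched dose, Ndufaf4 (-0.48), Ndufaf6, Ecsit, Lrpprc (-0.35) and Coa3 were lower after AI-8-45 than after AI-7-54.

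Of 21 other carriers and subunits of the chain, 7 were lower (33.3%, against 7.29% of all genes) and 3 higher (6.87% of all genes) with AI-9-54 than with AI-7-54. Cycs, cytochrome c, which carries electrons from complex III to complex IV, had values of 11.68, 11.76 and 11.72 after AI-7-54, 11.30, 11.27, 11.33 and 11.35 after AI-8-45, and 11.04, 11.03, 11.16 and 11.26 after AI-9-54. Its groups did not overlap, with differences of -0.60 between AI-9-54 and AI-7-54 (limma adjusted p = 2.94e-05) and -0.41 between AI-8-45 and AI-7-54 (limma adjusted p = 0.00142). Cyc1, the cytochrome c1 subunit of complex III that the naming rule does not include, was at -0.31 and Ndufab1, the acyl carrier protein, at -0.28 between AI-9-54 and AI-7-54, both called. Coq8a, an atypical kinase-like protein of ubiquinone synthesis, was higher, at 0.42. Of 18 pyruvate dehydrogenase and citric acid cycle genes, 6 were lower (33.3%, against the same 7.29%) and 0 higher in that comparison: Idh3a (-0.43), Idh2 (-0.38), Fh1 (-0.32), Mdh2 (-0.25), Suclg2 (-0.23) and Suclg1 (-0.21). Both lists are bright, with median levels at the 74.4 and 92.0 percentile. Among the 11090 genes above the median level 31.5% were called, 1826 of them lower.

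For the mitochondrially encoded subunits, differences were small and mostly above 0 relative to AI-7-54. Of 10 measured, 0 were called by limma in any comparison, with 0 at an unadjusted p under 0.05 between AI-9-54 and AI-7-54, 1 between AI-8-45 and AI-7-54 and 0 between AI-9-54 and AI-8-45, and their median difference was 0.03 between AI-9-54 and AI-7-54, 0.05 between AI-8-45 and AI-7-54 and -0.019 between AI-9-54 and AI-8-45. The groups did not overlap, with AI-8-45 higher than AI-7-54, for 6 of the 10, against 6.79% of all genes, and with AI-9-54 higher than AI-7-54 for 4 of the 10, against 11.3%. Of the 10, 1 lay below 0 in the former comparison and 2 in the latter. Their mean deviation on the arrays lay between -0.053 and 0.05. For COX1, the catalytic subunit of complex IV, the group means were 13.41, 13.47 and 13.45 after AI-7-54, AI-8-45 and AI-9-54, with an interval of -0.04 to 0.11 for AI-9-54 against AI-7-54. These probe sets lay near the top of the measured range, which ended at 13.8.

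Of 22 regulators of respiratory genes and of mitochondrial transcription, 3 were lower (13.6%, against 7.29% of all genes) and 1 was higher with AI-9-54 than with AI-7-54. The 4 called genes are near the share over all genes in either direction, 14.2%, and the median of the list was -0.044. The list's median level lay at the 73.2 percentile, and among the 11090 genes above the median level 31.5% were called. Pprc1, a coactivator of the PGC-1 family that acts with NRF1, had values of 10.01, 9.88 and 9.95 after AI-7-54, 9.55, 9.43, 9.43 and 9.43 after AI-8-45, and 9.25, 9.25, 9.13 and 9.15 after AI-9-54. The groups formed 3 separate bands, and the gene was called in all 3 comparisons: -0.75 (limma adjusted p = 3.12e-06) between AI-9-54 and AI-7-54, -0.48 (limma adjusted p = 0.000228) between AI-8-45 and AI-7-54 and -0.27 (limma adjusted p = 0.0214) between AI-9-54 and AI-8-45. Polrmt, the mitochondrial RNA polymerase, was at -0.32 and the coactivator Ppargc1b at -0.27, both called, and its relative Ppargc1a was higher, at 0.40 (limma adjusted p = 0.0452). The genes for the GABP subunits were not called, with Gabpa at 0.015 (interval -0.072 to 0.10) and Gabpb1 at 0.03 (interval -0.067 to 0.12). Nrf1 was at -0.034, Yy1 at -0.054 and Tfam, which packages mitochondrial DNA, at -0.15 (interval -0.28 to -0.026), none of them called.

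**Figure D5:**
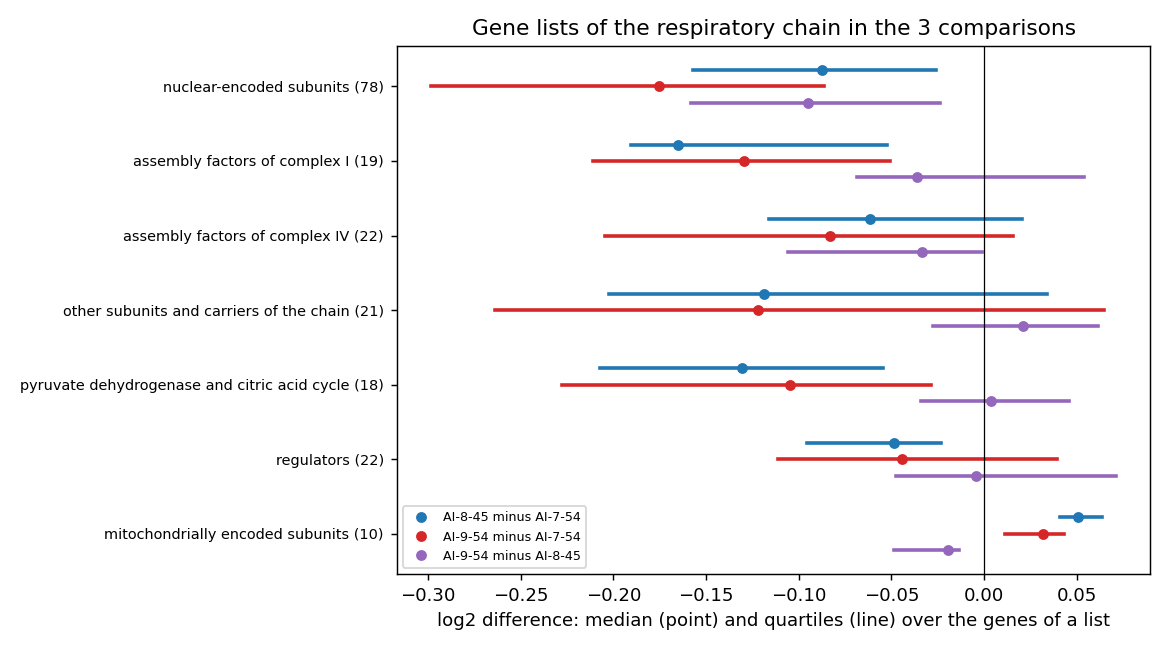
Median (point) and quartiles (line) of the log2 differences over the genes of each list (horizontal axis), with the number of genes in brackets, for the 3 comparisons in 3 colours. For AI-9-54 (50 µM) minus AI-7-54 (100 µM) the nuclear-encoded subunits have a median of -0.18 and the mitochondrially encoded subunits 0.03.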

How the data were processed

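The values are the deposited log2 expression values per probe set of an Affymetrix whole-transcript array; the log2 scale was read from their range (3.23 to 13.8). RMA and Partek 6.6 were named per the submitters' processing notes, and the build behind the probe sets is not given in the sources used here. Of 41345 probe sets, 23521 had 1 gene symbol, 1814 had several and 16010 were unnamed here; 23328 of the first matched the RefSeq GRCm38.p6 table by Entrez ID. The probe set with the highest mean stood for each of 22180 genes, and 10 subunit probe sets with several symbols were left out. A limma 3.58.1 model (R 4.3.3) was fitted over all 11 arrays (8 residual degrees of freedom), two-sided, with Benjamini-Hochberg adjustment over all genes of a comparison, and tested on simulated data. Intervals are 95% limma intervals for single genes. Precision is limited by how few arrays there were.

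The members, lists, role groups and motifs were chosen with earlier results of these data known. Named with values are all called members, preset core subunits and isoforms, and up to 6 called genes per other list; array values are given for at most 8 called members per comparison. Other uncalled members, and the array values of uncalled genes, were chosen after their values were seen. Same-numbered arrays of AI-9-54 and AI-7-54 had weakly correlated deviations from their group means (r of 0.14, 0.16 and 0.12), and the blocked result stands beside that comparison. Over all 10 same-numbered pairs r ran from -0.023 to 0.45. Differently numbered arrays of a set (1 and 2, or 3 and 4) had r from 0.04 to 0.49, so the correlation was not particular to the number. Across the sets r ran from -0.48 to 0.0091, and counts with the set as a factor are also given. Alternatives covered normalization, filters, probe sets, array weights, replicate sets and each array left out. Plots used Python 3.11.15 and matplotlib 3.10.9.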

Additional observations from a re-analysis of the deposited data

Results flagged for a closer look

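In AI-8-45, replicate 3 was flagged for 2 of the genes examined. Uqcr11 was at 8.6189 there, while the other 3 arrays all read 8.56, and Cox8a was at 12.143, while the others lay between 11.952 and 11.9692. Each gap, divided by the range, exceeded Dixon's 95% critical value for 4 samples. For Uqcr11 the other 3 arrays had the same value, 8.5612. That ratio was therefore 1.0 whatever the size of the gap, and the flag does not show an outlying array. Without such ties, chance flags about 1 group in 20, and 66 groups of 4 were examined.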

How the results depend on the processing

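Without a single array, the count of lower subunit genes ran from 20 to 33 between AI-9-54 and AI-7-54. It ran from 2 to 7 between AI-8-45 and AI-7-54 and from 1 to 2 between AI-9-54 and AI-8-45. The count of higher ones between AI-8-45 and AI-7-54 ran from 0 to 1. Of all genes, 9.48% to 14.8%, 2.43% to 5.54% and 0.577% to 1.16% were called in those fits, in the same order of comparisons. Within replicates 1 and 2 the lower counts were 8, 0 and 0 in that order, with 1 higher gene in each comparison of AI-9-54, and within replicates 3 and 4 they were 12, 2 and 0; fewer arrays enter those fits. With the replicate block they were 28, 7 and 3, with 1 higher gene, Cox6a2, in each comparison of AI-9-54. With the replicate set as a factor they were 35, 9 and 5, again with 1 higher gene in each comparison of AI-9-54. The mean of the probe sets gave 1 between AI-9-54 and AI-8-45. The causes of these changes were not tested. The other settings gave from 28 to 39 lower genes between AI-9-54 and AI-7-54, where 12.3% to 31.5% of the genes tested were called. Of the single-gene values under an alternative, 3292 kept their side of the threshold, 157 lost a call and 49 gained one, and none changed sign while called.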
